A study of Mus musculus with 3 samples.

Results

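*Hoxa10*, *Hoxc10*, *Hoxd10*, *Hoxa11*, *Hoxc11* and *Hoxd11* are the mouse Hox10 and Hox11 paralogs, and their transcripts were followed across the cells of the embryonic kidney. They were chosen by symbol, as 6 of the 32285 genes in the count matrices. No measured value entered the rule, but earlier results of these data were known when it was set. Hox genes encode homeodomain transcription factors, lie in chromosomal clusters named A to D, and give cells positional identity along the body axis. The Hox11 paralogs are required redundantly in the metanephric mesenchyme, where their proteins act with EYA1 and PAX2 to switch on *Six2* and *Gdnf*. The Hox10 paralogs act together in the renal stroma, and the ureteric epithelium is known for little expression of either group.

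Single-cell RNA-seq (10x Genomics, which reads the 3′ end of a transcript) had been performed on whole kidneys of B6 embryos at E15.5. Embryos of all groups carried *Wt1* GFPCre/+, a knock-in that inactivates 1 allele of *Wt1* and expresses Cre in *Wt1*+ cells, so that recombination covers nephron and stroma but not the ureteric lineage. The *Enl*-WT library pooled *Enl*+/+ *Wt1* GFPCre/+ kidneys. The *Enl*-T1 library pooled *Enl* flox-T1/+ *Wt1* GFPCre/+ kidneys, in which Cre exposes T1, a small in-frame insertion in the YEATS domain of the chromatin reader ENL (gene *Mllt1*). The *Enl*-T1 TDI-11055 library, called the treated library below, came from that same mutant genotype after daily oral doses of TDI-11055 (100 mg/kg) to the mothers from E10.5 to E14.5, and the other libraries were untreated. TDI-11055 is a small molecule that occupies the acyl-binding pocket of ENL. The study used these groups to ask how mutant ENL alters gene expression in nephron and stromal cells, *Hox* genes included, and how far the inhibitor reverses it.

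Each group was 1 library of pooled embryos, so no test between groups was possible. Transcripts were counted as unique molecular identifiers (UMIs). Levels are UMIs of a gene per 1000000 UMIs of the named cells (CPM), with 95% Poisson intervals in parentheses. Ratios of levels carry 95% exact binomial intervals and shares of cells carry 95% Clopper-Pearson intervals. All of these intervals cover counting error only, and differences between embryos or preparations are outside them. Counts of 3′ ends are not divided by transcript length, and comparisons of levels between genes below are on this count scale.

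Barcodes with 1000 to 6000 genes and at most 10% mitochondrial UMIs were kept, 5233 from *Enl*-WT, 4144 from *Enl*-T1 and 2754 from the treated library, with 5 to 8 kept barcodes shared between any pair of libraries. The libraries stood apart in depth (median 5090, 9391 and 16932 UMIs per kept cell), in ribosomal share (medians from 16.5% to 27.9%) and in the share of cells with *Xist*, which was 26.5%, 73.3% and 35.1% in the same order. Each of these moves with the group, and the part of each in the results was not tested. Cells were clustered without the *Hox* genes and named from marker genes, with the suffix "-like" because the files gave no names. Nephron-like cells numbered 2216, 1300 and 1341, stroma-like cells 869, 1398 and 270, ureteric-like cells 1744, 1171 and 1023, and endothelial-like cells 395, 257 and 115.

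The genes lie in pairs of adjacent paralogs, and the results below turn on the cluster to which a gene belongs. In GRCm38 (GENCODE M21), *Hoxa10* (chr6:52231197-52240854, minus strand) and *Hoxa11* (chr6:52242106-52245810, minus strand) have start sites 4956 bases apart. *Hoxc11* (chr15:102954427-102957708) and *Hoxc10* (chr15:102966796-102971893) lie on the plus strand with start sites 12369 bases apart. *Hoxd11* (chr2:74679557-74687016) and *Hoxd10* (chr2:74691924-74695105) lie on the plus strand 12367 bases apart. *Hoxc10* overlaps *Hoxc5* on the same strand, where reads in shared exons cannot be assigned, and *Hoxa11* overlaps the antisense transcript *Hoxa11os*, which this strand-specific assay counts separately.

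The promoters of the A and D members are shown because levels of adjacent paralogs moved together. RefSeq windows (GRCm38.p6) of 300 bases, 250 before and 50 after a start site, were found for 4 of the 6 members, and those nearest to the start sites above (0 to 33 bases between the RefSeq and GENCODE sites, with *Hoxd10* the farthest) are printed from 5′ to 3′ on the gene's strand, with matches to the motifs named below in capitals. The windows are chr6:52240805-52241104 (minus strand) for *Hoxa10*, chr6:52245761-52246060 (minus strand) for *Hoxa11*, chr2:74691641-74691940 (plus strand) for *Hoxd10* and chr2:74679308-74679607 (plus strand) for *Hoxd11*.
Hoxa10: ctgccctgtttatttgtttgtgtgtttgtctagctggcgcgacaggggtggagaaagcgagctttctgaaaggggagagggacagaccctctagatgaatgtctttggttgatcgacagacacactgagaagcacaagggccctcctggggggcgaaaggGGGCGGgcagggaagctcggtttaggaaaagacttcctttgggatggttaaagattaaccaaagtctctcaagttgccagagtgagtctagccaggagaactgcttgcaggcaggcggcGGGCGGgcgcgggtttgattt
Hoxa11: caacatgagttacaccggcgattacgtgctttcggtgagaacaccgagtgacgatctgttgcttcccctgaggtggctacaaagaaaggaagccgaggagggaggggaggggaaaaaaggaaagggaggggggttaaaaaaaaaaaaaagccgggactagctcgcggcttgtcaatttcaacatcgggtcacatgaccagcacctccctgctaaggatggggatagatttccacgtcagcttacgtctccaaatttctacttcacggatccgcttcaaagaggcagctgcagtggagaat
Hoxd10: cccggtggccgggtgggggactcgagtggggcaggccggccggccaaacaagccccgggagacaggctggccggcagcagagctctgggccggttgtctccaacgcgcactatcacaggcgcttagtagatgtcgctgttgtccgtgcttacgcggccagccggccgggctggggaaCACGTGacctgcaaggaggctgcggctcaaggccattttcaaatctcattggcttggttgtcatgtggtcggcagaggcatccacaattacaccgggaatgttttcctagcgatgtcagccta
Hoxd11: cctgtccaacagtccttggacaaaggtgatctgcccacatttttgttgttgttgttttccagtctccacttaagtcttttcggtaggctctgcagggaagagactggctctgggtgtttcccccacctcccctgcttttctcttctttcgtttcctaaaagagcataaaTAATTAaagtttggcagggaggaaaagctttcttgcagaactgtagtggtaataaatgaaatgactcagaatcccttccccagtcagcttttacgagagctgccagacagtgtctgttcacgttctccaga

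The windows differed in CG dinucleotides, a base pair step that is dense in CpG islands. *Hoxd10* held 22, *Hoxa11* 15, *Hoxa10* 12 and *Hoxd11* 4, beside a median of 7 over 32851 promoters (quartiles 3 and 20). *Hoxd11* and *Hoxa10* each have a second RefSeq window that is not printed, 2766 and 5915 bases from the start sites above. These second windows held 25 and 21 such dinucleotides, so the low count of *Hoxd11* applies to its printed window alone. Both strands were searched for short motifs, given below for the 4 printed windows. The second *Hoxd11* window held the GC box, the E-box, the homeodomain core and the HOX-PBX motif named below. The second *Hoxa10* window held the TATA box. The *Hoxa10* window held the GC box GGGCGG, found in 35.7% of all promoters, and the *Hoxd10* window held the E-box CACGTG, found in 7.15%. The *Hoxd11* window held the homeodomain core TAATTA, found in 5.29%. None of the 4 windows held TATAAA (13.6% of all promoters), the HOX-PBX motif TGATNNAT (8.85%) or the CDX motif TTTATNG (10.9%).

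In the control kidney the 6 genes were transcripts of the nephron and the stroma. Of all their UMIs in the 4 lineages of the *Enl*-WT library, 71.2% came from nephron-like and 23.3% from stroma-like cells, which were 42.4% and 16.6% of these cells. Ureteric-like cells were 33.4% of the cells and gave 3.86% of the UMIs. The summed level of the 6 genes was 457 (446–469) CPM in nephron-like, 508 (487–531) CPM in stroma-like, 51.1 (43.2–60.1) CPM in endothelial-like and 30.6 (27.5–34.1) CPM in ureteric-like cells.

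*Hoxd11*, the most counted member in the nephron, had 152 (145–159) CPM in nephron-like and 145 (134–158) CPM in stroma-like cells of *Enl*-WT. *Hoxa10* had 130 (124–136) CPM in the nephron and 118 (108–129) CPM in the stroma. For both genes the intervals of the lineages overlapped. *Hoxc10* was higher in the stroma, with 152 (140–164) CPM against 96.9 (91.8–102) CPM in the nephron. *Hoxa11* likewise had 40.3 (34.3–46.9) CPM in the stroma and 31.7 (28.8–34.8) CPM in the nephron, with intervals that met at their ends. *Hoxd10* was at 43.4 (37.3–50.3) and 41.6 (38.2–45.1) CPM. *Hoxc11* was the least counted, with 75 UMIs or 5.42 (4.27–6.80) CPM in the nephron and 37 UMIs or 9.08 (6.39–12.5) CPM in the stroma. The order in the nephron was thus *Hoxd11*, *Hoxa10*, *Hoxc10*, *Hoxd10*, *Hoxa11* and *Hoxc11*, with no overlap between neighbouring intervals. In the stroma *Hoxc10* and *Hoxd11* could not be separated, nor could *Hoxd10* and *Hoxa11*.

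The *Enl*-T1 library had higher levels of all 6 genes in both lineages. *Hoxa10* in nephron-like cells was at 130 CPM in *Enl*-WT, 274 (265–283) CPM in *Enl*-T1, with 283 (275–290) CPM in the treated library. *Hoxc10* was at 96.9, 410 (400–421) and 164 (159–170) CPM, and *Hoxd10* at 41.6, 107 (102–113) and 55.9 (52.6–59.4) CPM. *Hoxc10*, an intermediate gene in the control nephron, was thus level with *Hoxd11* in the mutant nephron. *Hoxa11* was at 31.7, 93.6 (88.7–98.8) and 102 (97.6–107) CPM. *Hoxc11* was at 5.42, 62.8 (58.7–67.0) and 26.7 (24.5–29.2) CPM, and *Hoxd11* at 152, 403 (393–414) and 208 (202–215) CPM. The library from treated mothers lay between the others for the C and D members, and at or above *Enl*-T1 for the A members.

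In stroma-like cells *Hoxa10* was at 118, 293 (283–303) and 396 (376–418) CPM in *Enl*-WT, *Enl*-T1 and the treated library. *Hoxc10* was at 152, 436 (424–448) and 322 (304–342) CPM, and *Hoxd10* at 43.4, 70.2 (65.3–75.3) and 35.3 (29.4–42.2) CPM. *Hoxa10* was thus highest in the treated library and *Hoxc10* and *Hoxd10* in *Enl*-T1. *Hoxa11* was at 40.3, 110 (104–117) and 145 (132–158) CPM, *Hoxc11* at 9.08, 57.0 (52.7–61.7) and 58.6 (50.9–67.2) CPM, and *Hoxd11* at 145, 189 (181–197) and 96.8 (86.8–108) CPM. Both D genes had their lowest stromal value in the treated library, although for *Hoxd10* its interval overlapped that of *Enl*-WT.

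**Figure D1:**
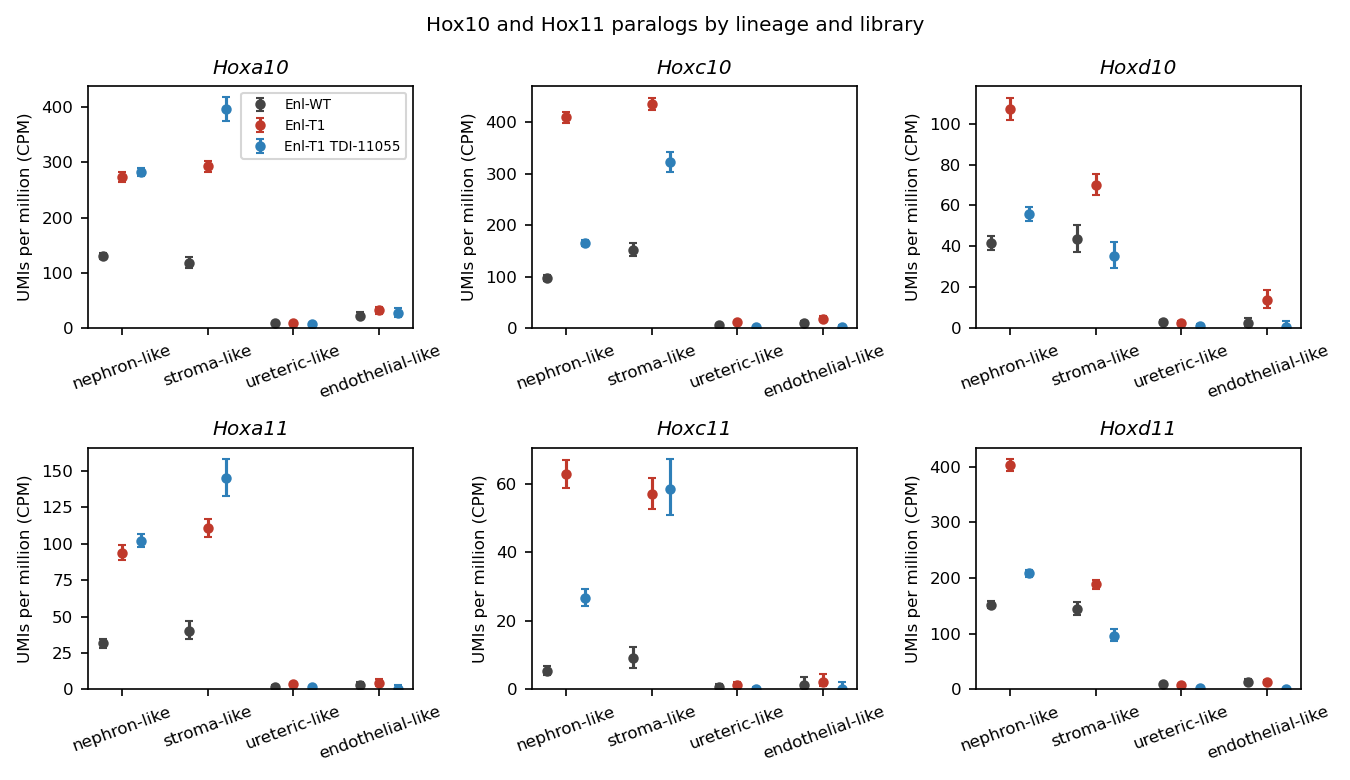
Level of each Hox10 and Hox11 paralog (CPM, y axis, a scale of its own in each panel) in 4 lineages (x axis) of the 3 libraries (colours, with *Enl*-T1 TDI-11055 the treated library), with 95% Poisson intervals as bars. All 6 genes are high in nephron-like and stroma-like cells and low in ureteric-like and endothelial-like cells. In nephron-like and stroma-like cells *Hoxa10* and *Hoxa11* are as high or higher in the treated library than in *Enl*-T1, while *Hoxd10* and *Hoxd11* are lower.

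Between *Enl*-WT and *Enl*-T1, all 6 members were at least 2-fold higher in nephron-like cells, where 2.83% of 10553 genes were. The ratio was 11.6 (9.14–14.9) for *Hoxc11*, 4.23 (3.99–4.49) for *Hoxc10* and 2.96 (2.65–3.30) for *Hoxa11*. It was 2.65 (2.52–2.79) for *Hoxd11*, 2.58 (2.34–2.85) for *Hoxd10* and 2.11 (1.99–2.23) for *Hoxa10*. The C genes thus had the 2 highest ratios of the 6. Ratios of the summed UMIs were close for the paralog groups, 2.95 (2.84–3.06) for Hox10 and 2.96 (2.83–3.10) for Hox11. The members' median log2 ratio was 1.49, against −0.41 over all genes tested.

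In stroma-like cells 4 of the 6 members were at least 2-fold higher in the mutant than in the control library, where 2.82% of 10552 genes were. They were *Hoxc11* with a ratio of 6.28 (4.51–9.0), *Hoxc10* with 2.87 (2.64–3.12), *Hoxa11* with 2.74 (2.33–3.25) and *Hoxa10* with 2.48 (2.25–2.73). The D genes stood lower, with 1.61 (1.37–1.91) for *Hoxd10* and 1.30 (1.18–1.42) for *Hoxd11*. The Hox10 sum had a ratio of 2.55 (2.40–2.70) and the Hox11 sum one of 1.83 (1.70–1.98), so the paralog groups, alike in the nephron, differed in the stroma beyond counting error. The members' median log2 ratio was 1.38, against −0.31 over all genes tested.

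*Enl*-T1 nephron-like cells included more progenitors than control cells did, and the summed control level was highest in progenitors, so the ratio was also taken within a class. NP1-like cells, which carry nephron progenitor markers such as *Six2*, *Cited1* and *Crym*, were 38.0% of nephron-like cells in *Enl*-WT, 60.2% in *Enl*-T1, with 53.4% in the treated library. Within them the summed ratio of *Enl*-T1 to *Enl*-WT was 1.86 (1.79–1.93), against 2.95 (2.87–3.04) over the nephron. *Hoxc11* had 7.08 (5.21–9.84), *Hoxc10* 2.32 (2.15–2.50), *Hoxd10* 1.76 (1.54–2.02), *Hoxa11* 1.71 (1.48–1.98), *Hoxd11* 1.59 (1.49–1.70) and *Hoxa10* 1.54 (1.42–1.67). The C genes led here too, and in CPM they were the 2 of 6 members past 2-fold, where 2.74% of the genes tested were. Median-of-ratios scaling, an alternative to CPM, raised log2 ratios by 0.38 in these cells. The count of members past 2-fold therefore depends on the scaling. The members' median log2 ratio in NP1-like cells was 0.79, against −0.34 over all genes.

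The 4 NP1-like clusters gave summed ratios from 1.67 to 2.04, so the difference was present in each of them. The largest of them was led by *Rspo3* and *Cited1* in *Enl*-WT (332 of 841 cells), by *Hist1h2bc* and *Prrx1* in *Enl*-T1 (255 of 782) and by the replication genes *Rrm2* and *Ccne2* in the treated library (194 of 716). The 8 NP1 markers summed to 1499, 625 and 1113 CPM in NP1-like cells of the 3 libraries. The name therefore rests on a lower marker level in *Enl*-T1, and the part of this in the members' ratios was not tested.

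Foxd1 stroma-like cells, named from *Foxd1*, *Ntn1*, *Dlk1*, *Aldh1a2*, *Clca3a1* and *Fibin*, were 45.9%, 34.9% and 68.5% of stroma-like cells in the same order. The class includes clusters led by *Hist1h2ae* and *Rrm2* and by *Cenpf* and *Cdc20*, with none of these markers among their 10 leading genes. It is therefore wider than *Foxd1*+ progenitors. Their ratios of *Enl*-T1 to *Enl*-WT were near those of the whole stroma, 6.02 (4.04–9.34) for *Hoxc11*, 3.15 (2.81–3.53) for *Hoxc10*, 2.84 (2.23–3.66) for *Hoxa11* and 2.60 (2.27–3.0) for *Hoxa10*. These 4 of 6 members were past 2-fold, where 3.66% of genes were. *Hoxd10* had a ratio of 1.60 (1.24–2.09). *Hoxd11* had 1.10 (0.963–1.25), an interval that contained equality, from 162 (145–181) CPM in *Enl*-WT and 178 (166–191) CPM in *Enl*-T1. The median log2 ratio over all genes tested was −0.27 in these cells. Median-of-ratios scaling, an alternative to CPM, raised log2 ratios by 0.25, so the equality of *Hoxd11* depends on the scaling. In NP1-like cells the same gene had 242 (228–257) and 385 (372–397) CPM. Across the 4 Foxd1 stroma-like clusters the summed ratio ran from 1.81 to 4.15, and that of the treated library to *Enl*-T1 from 0.585 to 1.10. The largest of these clusters was one led by *Ntn1* and *Igfbp6* in *Enl*-WT (141 of 399 cells) and one led by *Hist1h2ae* and *Rrm2* in *Enl*-T1 (179 of 488) and in the treated library (66 of 185). The 6 Foxd1 stroma markers summed to 1822, 826 and 1332 CPM in these cells.

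After the inhibitor the genes separated by cluster. In nephron-like cells the ratio of the treated library to *Enl*-T1 was 0.401 (0.384–0.419) for *Hoxc10*, 0.426 (0.381–0.475) for *Hoxc11*, 0.517 (0.497–0.539) for *Hoxd11* and 0.521 (0.481–0.564) for *Hoxd10*. It was 1.03 (0.990–1.08) for *Hoxa10* and 1.09 (1.02–1.17) for *Hoxa11*. The C genes, 2 of the 6 members, were at least 2-fold lower, where 1.88% of 9976 genes were. The members' median log2 ratio was −0.95, against −0.00 over all genes. This comparison and the one above share the *Enl*-T1 library, so a chance high value there would lower this ratio and raise the other.

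In NP1-like cells the C genes had 0.528 (0.502–0.555) and 0.537 (0.474–0.609) for *Hoxc10* and *Hoxc11*, and the D genes 0.564 (0.511–0.622) and 0.598 (0.569–0.629) for *Hoxd10* and *Hoxd11*. *Hoxa10* had 1.01 (0.954–1.06) and *Hoxa11* 1.25 (1.15–1.37). None of the 6 members was 2-fold lower, where 1.86% of genes were, and the members' median log2 ratio was −0.78. In CPM, the D genes of the treated library were at their control level in these cells. Their ratios of the treated library to *Enl*-WT were 0.990 (0.860–1.14) for *Hoxd10* and 0.951 (0.887–1.02) for *Hoxd11*. The other 4 members stayed above the control level, *Hoxc10* at 1.22 (1.13–1.32), *Hoxa10* at 1.55 (1.43–1.68), *Hoxa11* at 2.14 (1.86–2.46) and *Hoxc11* at 3.80 (2.78–5.31). The median log2 ratio over all genes tested was −0.32 in this comparison. Median-of-ratios scaling raised log2 ratios by 0.36, so the match of the D genes to the control level depends on the scaling.

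In stroma-like cells the A genes were higher in the treated library than in *Enl*-T1, with ratios of 1.35 (1.27–1.44) for *Hoxa10* and 1.31 (1.18–1.46) for *Hoxa11*. The D genes were lower, with 0.504 (0.413–0.610) for *Hoxd10* and 0.513 (0.456–0.576) for *Hoxd11*. The C genes lay between them, *Hoxc10* at 0.739 (0.692–0.789) and *Hoxc11* at 1.03 (0.873–1.21). None of the 6 members passed 2-fold downward in CPM, where 4.3% of 10213 genes did. With median-of-ratios scaling *Hoxd10* and *Hoxd11* had ratios of 0.468 and 0.476, so this count depends on the scaling. The summed ratio of 0.913 (0.879–0.947) thus averages opposite directions. The 270 stroma-like cells of the treated library had a makeup of their own, with 185 Foxd1 stroma-like and 10 or 11 cells in each of the ureteric and medullary stroma-like classes.

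Within Foxd1 stroma-like cells the order by cluster was the same as in the whole stroma. The ratio of the treated library to *Enl*-T1 was 1.38 (1.27–1.5) for *Hoxa10*, 1.23 (1.07–1.42) for *Hoxa11*, 0.919 (0.760–1.11) for *Hoxc11*, 0.726 (0.673–0.784) for *Hoxc10*, 0.546 (0.469–0.634) for *Hoxd11* and 0.418 (0.311–0.554) for *Hoxd10*. *Hoxd10* was the 1 member past 2-fold downward, where 5.58% of genes were. Against *Enl*-WT in CPM, both D genes were below the control level, *Hoxd10* at 0.671 (0.471–0.953) and *Hoxd11* at 0.599 (0.503–0.713), while *Hoxa10* stood at 3.59 (3.11–4.15) and *Hoxa11* at 3.50 (2.72–4.55). The median log2 ratio over all genes tested was −0.27 in this comparison. Median-of-ratios scaling raised log2 ratios by 0.17, so for *Hoxd10* a level below the control depends on the scaling.

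**Figure D2:**
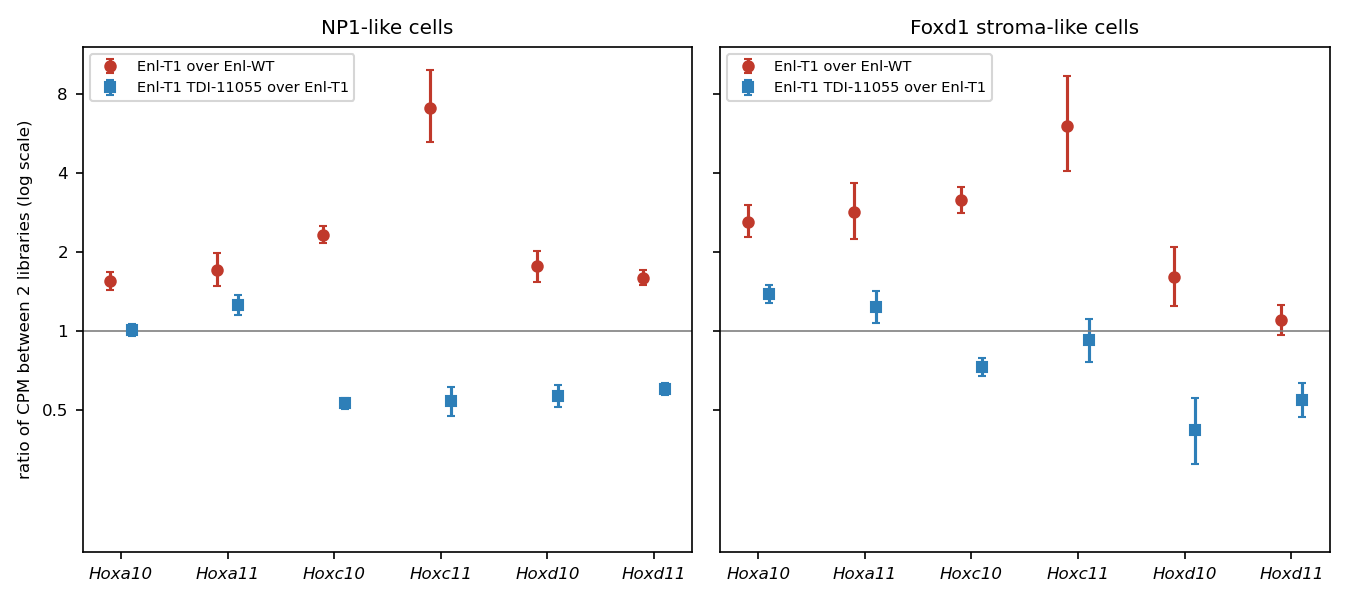
Ratio of levels between libraries (y axis, log scale) for each paralog (x axis, ordered by cluster A, C and D) in NP1-like and Foxd1 stroma-like cells, with 95% binomial intervals as bars. Red circles are *Enl*-T1 over *Enl*-WT and blue squares the treated library (*Enl*-T1 TDI-11055) over *Enl*-T1, which share the *Enl*-T1 library. *Hoxc11* has the highest red value in both panels, and the blue values fall at or above 1 for the A genes and below 1 for the D genes.

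The makeup of each paralog group shifted accordingly. Of Hox11 UMIs in nephron-like cells, *Hoxd11* was 80.4% in *Enl*-WT, 72.0% in *Enl*-T1, with 61.8% in the treated library. *Hoxa11* was 16.8%, 16.7% and 30.3%, and *Hoxc11* 2.87%, 11.2% and 7.93%. In stroma-like cells *Hoxd11* was 74.7%, 53.0% and 32.2%, and *Hoxa11* was 20.7%, 31.0% and 48.2%, so that *Hoxa11* was the most counted Hox11 gene in treated stroma. Of Hox10 UMIs, *Hoxc10* was the most counted gene in the *Enl*-T1 nephron, at 51.8% against 36.1% in *Enl*-WT and 32.7% in the treated library. *Hoxa10* led in the other libraries with 48.4% and 56.2%. In the stroma *Hoxc10* led in *Enl*-WT and *Enl*-T1 (48.4% and 54.5%) and *Hoxa10* in the treated library (52.6%).

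**Figure D3:**
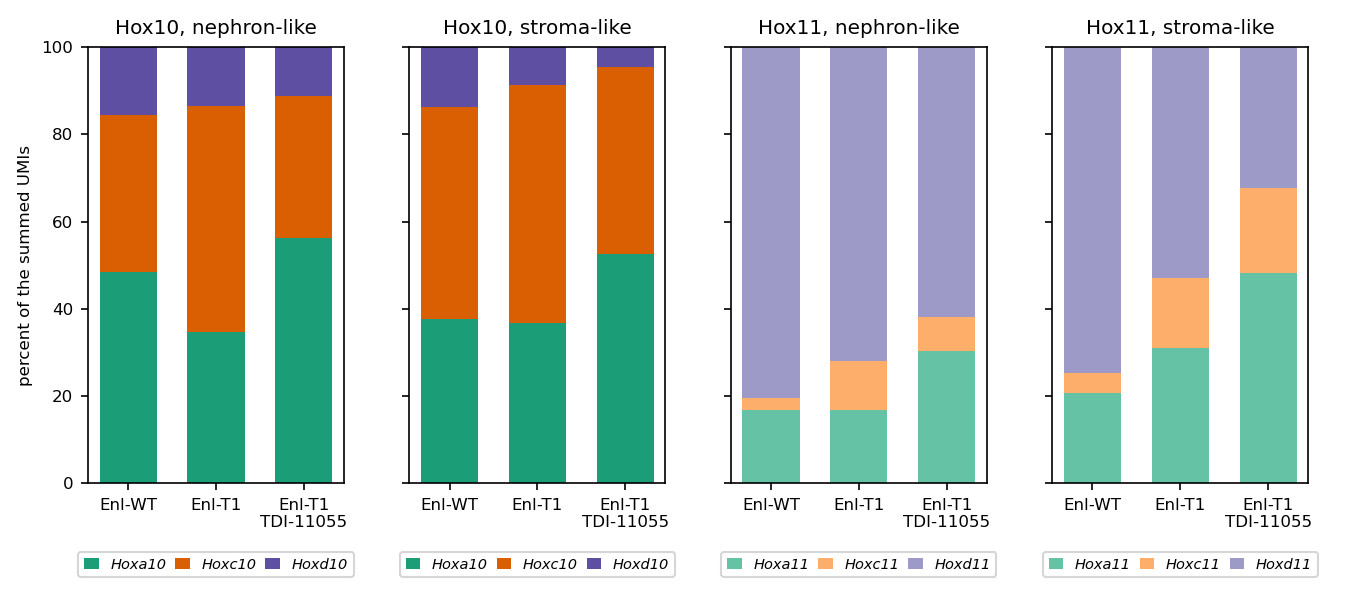
Share of each gene in the summed UMIs of its paralog group (y axis, percent) by library (x axis) in nephron-like and stroma-like cells. *Hoxd11* takes 80.4% of Hox11 UMIs in the *Enl*-WT nephron and 32.2% in the stroma of the treated library, where *Hoxa11* takes 48.2%.

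The balance between the groups moved less. Hox11 genes gave 41.3% (40.1–42.5) of the UMIs of all 6 members in *Enl*-WT nephron-like cells, 41.4% (40.7–42.1) in *Enl*-T1, with 40.1% (39.4–40.9) in the treated library. In stroma-like cells they gave 38.3% (36.2–40.4), 30.8% (30.04–31.64) and 28.5% (27.03–29.98). The Hox11 share was thus even across libraries in the nephron and lower in both mutant libraries in the stroma.

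Along the control nephron the members did not decline in step. Levels are given here relative to NP1-like cells of the same library. NP2-like cells, the induced progenitors marked by *Lhx1* and *Wnt4*, held 45.9% of the NP1-like level of Hox10 genes and 46.2% of that of Hox11 genes. Podocyte-like cells held 47.4% (42.05–53.37) of the Hox10 level but 12.6% (9.65–16.2) of the Hox11 level. Proximal tubule-like cells held 24.0% (20.4–28.0) and 7.42% (5.28–10.2). The glomerular and proximal classes thus held less of the Hox11 than of the Hox10 level, while distal tubule/loop of Henle-like cells held 58.2% and 71.9%.

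The distal class also split the genes by cluster. In *Enl*-WT, distal tubule/loop of Henle-like cells held 94.9% of the NP1-like level of *Hoxd10*, 87.6% (78.5–97.7) of *Hoxa10*, 76.5% of *Hoxd11* and 59.0% of *Hoxa11*. They held 18.3% (15.0–22.1) of that of *Hoxc10* and 22.7% (9.22–48.7) of *Hoxc11*. Both C genes were therefore low in this class. In *Enl*-T1 the values for *Hoxc10* and *Hoxc11* were 75.7% and 75.2%, near the 95.1% to 121% of the other members, and in the treated library they were 22.0% and 15.4%.

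In CPM, *Hoxc10* in distal tubule/loop of Henle-like cells was at 32.9 (27.4–39.2) in *Enl*-WT, 315 (287–346) in *Enl*-T1, with 48.4 (41.2–56.6) in the treated library. The ratio of *Enl*-T1 to *Enl*-WT was 9.58 (7.83–11.8), and that of the treated library to *Enl*-T1 was 0.154 (0.127–0.185). *Hoxc11* was at 2.12, 49.8 and 5.48 CPM, with ratios of 23.5 (11.3–56.5) and 0.110 (0.0617–0.187). The 2 C genes were high in this class in the *Enl*-T1 library alone. *Hoxa10* was at 149, 318 and 375 CPM, with ratios of 2.13 (1.87–2.41) and 1.18 (1.06–1.32). The class numbered 595, 112 and 242 cells, and its own markers summed to 1962, 870 and 961 CPM.

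**Figure D4:**
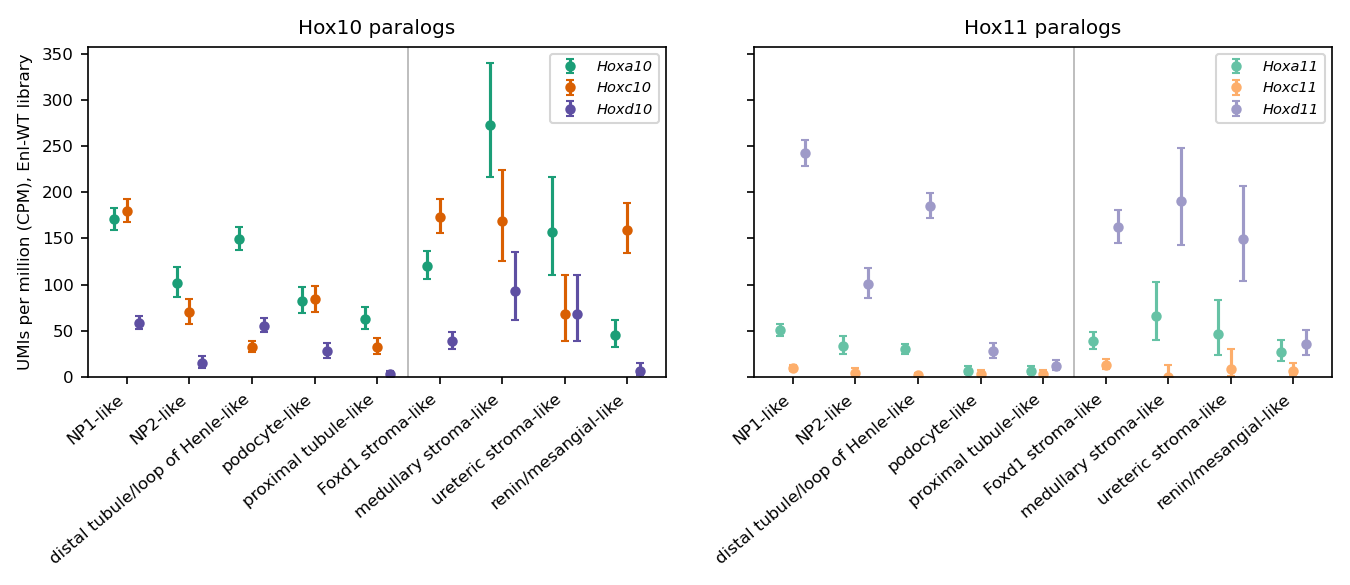
Levels (CPM, y axis) of the Hox10 (left) and Hox11 (right) paralogs in named classes (x axis) of the *Enl*-WT library, nephron classes left of the grey line and stromal classes right of it, with 95% Poisson intervals as bars. Levels are lower in proximal tubule-like than in NP1-like cells, without a steady decline over the classes between them. *Hoxc10* is low in distal tubule/loop of Henle-like cells at 32.9 CPM, and *Hoxa10* is highest in medullary stroma-like cells at 273 CPM.

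Podocyte-like and proximal tubule-like cells were not compared between libraries. The podocyte markers summed to 10868 CPM in podocyte-like cells of *Enl*-WT but to 186 CPM in the 45 cells so named in *Enl*-T1, and the proximal tubule markers to 3936 and 309 CPM in proximal tubule-like cells. In those 45 cells *Hoxd11* was at 663 (579–756) CPM, a level above that of NP1-like cells of the same library.

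The stromal classes of the control kidney differed in which member was highest. Medullary stroma-like cells had the highest summed level of the 4 named stromal classes, 792 CPM, with *Hoxa10* at 273 (216–340) CPM and *Hoxc11* not detected in 86 cells (0–12.8 CPM). Foxd1 stroma-like cells had a sum of 547 CPM and ureteric stroma-like cells one of 498 CPM. In renin/mesangial-like cells the sum was 281 CPM, and *Hoxc10* made up most of it at 159 (134–188) CPM, beside 45.1 (32.1–61.6) CPM of *Hoxa10*. *Enl*-T1 ureteric stroma-like cells, which carry *Tbx18* and *Actg2*, numbered 255 against 55 in *Enl*-WT. There *Hoxc10* was at 634 (599–670) CPM and *Hoxa10* at 436 (407–466) CPM, against 68.1 (38.9–111) and 158 (111–217) CPM in *Enl*-WT.

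Ureteric-like and endothelial-like cells gave few UMIs for the 6 genes. In ureteric-like cells *Hoxa10* had 99, 147 and 123 UMIs in *Enl*-WT, *Enl*-T1 and the treated library, and *Hoxc11* had 9, 21 and 5. The summed level was 30.6 CPM in *Enl*-WT, 37.0 (34.0–40.1) CPM in *Enl*-T1, with 15.0 (13.3–16.9) CPM in the treated library. *Hoxa10*, *Hoxc10* and *Hoxd11* were the 3 of 6 members with a mean of at least 5 CPM, the minimum for the genes counted here. None of the 3 was 2-fold higher in the mutant than in the control library, where 2.43% of genes were, and 2 of them (*Hoxc10* and *Hoxd11*) were 2-fold lower in the treated library than in *Enl*-T1, where 3.92% were. A gene under 5 CPM in the treated library passes this minimum only if it is higher in *Enl*-T1. *Hoxc10* (11.9 CPM in *Enl*-T1 and 1.84 CPM in the treated library) and *Hoxd11* (8.09 and 3.36 CPM) passed in that way. The filter thus favoured a fall, and no conclusion is drawn from these 2 beside 3.92%.

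A part of the NP1 marker list, *Six2*, *Cited1*, *Crym*, *Meox1*, *Eya1* and *Uncx*, was taken as genes that ureteric cells should lack. Together they had 3.77%, 3.03% and 2.38% of their NP1-like level in ureteric-like cells. The Hox10 genes had 4.48%, 3.07% and 1.74% of theirs, and the Hox11 genes 4.08%, 2.41% and 1.49%. In the treated library both groups lay below these NP1 markers, at 1.74% (1.49–2.02) and 1.49% (1.22–1.80) against 2.38% (2.16–2.61). Relative to stroma-like cells, ureteric-like cells held 5.84%, 3.01% and 1.26% of the Hox10 level and 6.33%, 3.64% and 1.86% of the Hox11 level. Both lay above the 1.08%, 1.12% and 0.232% of stromal markers (collagens, PDGF receptors and *Lum*). With the 301, 218 and 142 barcodes of highest doublet score removed, the ureteric sums were 9.69, 11.5 and 9.06 CPM. The ratio of *Enl*-T1 to *Enl*-WT was then 2.37 (1.31–4.55) for *Hoxc10* and 4.71 (1.07–43.0) for *Hoxc11*, the latter from 13 against 2 UMIs. Shares of all genes past 2-fold were not computed for these cells. *Hoxd9*, the neighbour of *Hoxd10*, was in contrast at 130 (123–137) CPM in ureteric-like cells of *Enl*-WT.

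In endothelial-like cells the members' sum was 51.1 (43.2–60.1), 82.3 (72.6–92.8) and 30.1 (22.5–39.4) CPM. *Hoxa10* was the most counted member in each library, at 22.5 (17.3–28.6), 31.9 (26.0–38.7) and 26.7 (19.6–35.5) CPM, which was 13.2%, 12.1% and 10.1% of its NP1-like level. The same NP1 markers as above had 4.04%, 8.11% and 3.20% of their own, and *Hoxd10* had 4.12%, 13.3% and 0.976%, a share in *Enl*-T1 that overlapped that of *Hoxa10*. In the treated library, *Hoxa10* gave 47 of the 51 Hox10 UMIs of endothelial-like cells, and the 3 Hox11 genes gave 2 UMIs. *Hoxd10* was the 1 member past 2-fold in *Enl*-T1 over *Enl*-WT, with 44 against 7 UMIs, where 2.18% of genes were. It passed the minimum of 5 CPM through *Enl*-T1 alone, at 13.8 CPM against 2.42 CPM in *Enl*-WT. The filter thus favoured a rise, and no conclusion is drawn from this count beside 2.18%. Stromal markers (collagens, PDGF receptors and *Lum*) summed to 53.6, 114 and 1.14 CPM in endothelial-like cells, and their part in the members' values was not tested. Of the 4 members with a mean of at least 5 CPM in *Enl*-T1 and the treated library, *Hoxc10*, *Hoxd10* and *Hoxd11* were 2-fold lower in the latter, where 6.53% of genes were, and *Hoxa10* had a ratio of 0.836 (0.579–1.19). *Hoxc10*, *Hoxd10* and *Hoxd11* passed this minimum through *Enl*-T1 alone. They were at 17.2, 13.8 and 12.8 CPM there and at 1.70, 0.568 and 0.568 CPM in the treated library. The filter thus favoured a fall, and no conclusion is drawn from their count beside that share.

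To count cells at equal depth, each cell was thinned to 2000 UMIs. The nephron-like cells of under 2000 UMIs, 36, 7 and 8 by library, and likewise 22, 3 and 1 stroma-like cells, were left out. A thinned nephron-like cell had *Hoxc10* in 16.7%, 51.1% and 22.7% of cases in *Enl*-WT, *Enl*-T1 and the treated library (35.5%, 85.5% and 59.5% unthinned). *Hoxa10* was found in 21.4%, 41.3% and 37.1% (47.5%, 85.9% and 79.3% unthinned), and *Hoxd11* in 24.3%, 49.7% and 27.5% (48.3%, 89.0% and 65.7% unthinned). *Hoxc11* was found in 1.06%, 10.8% and 4.2% (3.16%, 41.9% and 21.7% unthinned). The shares of cells followed the levels. In thinned ureteric-like cells no member passed 2.14% in any library, at unthinned median depths of 5224, 11709 and 19319 UMIs against 5310, 10248 and 13283 in nephron-like cells.

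More mutant cells held Hox10 and Hox11 transcripts together. A UMI of both groups was found in 13.3% of thinned nephron-like cells of *Enl*-WT (291 of 2180), 49.6% of *Enl*-T1 (641 of 1293) and 23.7% of the treated library (316 of 1333). Unthinned, the shares were 42.9%, 93.2% and 73.6%. The difference of *Enl*-T1 from *Enl*-WT was 36.2 percentage points (33.1–39.3). In stroma-like cells the shares were 15.2%, 33.8% and 28.6% (39.2%, 75.5% and 73.3% unthinned), a difference of 18.5 points (14.9–22.0). In ureteric-like cells 6, 9 and 0 thinned cells had both, 0.350%, 0.772% and 0% (2.64%, 3.50% and 1.76% unthinned).

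Joint counts were set beside those computed for independent genes. In NP1-like cells 194, 379 and 210 thinned cells had both groups, beside 187.7, 370.9 and 209.0 computed from the separate shares. In Foxd1 stroma-like cells the counts were 67, 188 and 54 beside 66.2, 172.7 and 54.1. The ratio of counted to computed cells was thus 0.998 to 1.09 in these classes. In *Enl*-T1 Foxd1 stroma-like cells, Hox11 UMIs were found in 53.9% (48.5–59.2) of the cells with Hox10 and in 38.4% (30.3–47.1) of the others. This class pools clusters that differ in level, and the part of that in the difference was not tested. Over all nephron-like cells, which mix classes, the ratio was 1.21, 1.04 and 1.08 by library, and in ureteric-like cells 6 and 9 joint cells stood beside 0.636 and 0.858 computed in *Enl*-WT and *Enl*-T1. Among NP1-like cells, those without a UMI of any member were 27.8%, 10.0% and 20.5%, and those with 2 or more members were 30.4%, 62.2% and 40.3%. In Foxd1 stroma-like cells 24.1%, 52.8% and 40.5% held 2 or more.

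Pairs of single members were compared in the same way. In Foxd1 stroma-like cells of *Enl*-T1, *Hoxc10* and *Hoxc11* were found together in 52 cells where 33.2 were computed, *Hoxa10* and *Hoxa11* in 51 where 39.0 were computed, and *Hoxd10* and *Hoxd11* in 27 where 15.9 were computed. Pairs from different clusters included a like excess, with *Hoxa11* and *Hoxc11* in 19 cells where 11.8 were computed, *Hoxc10* and *Hoxa11* in 66 where 51.1 were, and *Hoxa10* and *Hoxc10* in 130 where 109.9 were. In NP1-like cells of that library the ratios for the adjacent pairs were 1.20, 1.06 and 1.08, and those of the other pairs ran from 0.944 to 1.36. Counts this sparse carry little information on pairing within a cell, and the clusters inside each class differ in level, so the excess is given as a count alone and not as a feature of adjacent genes.

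**Figure D5:**
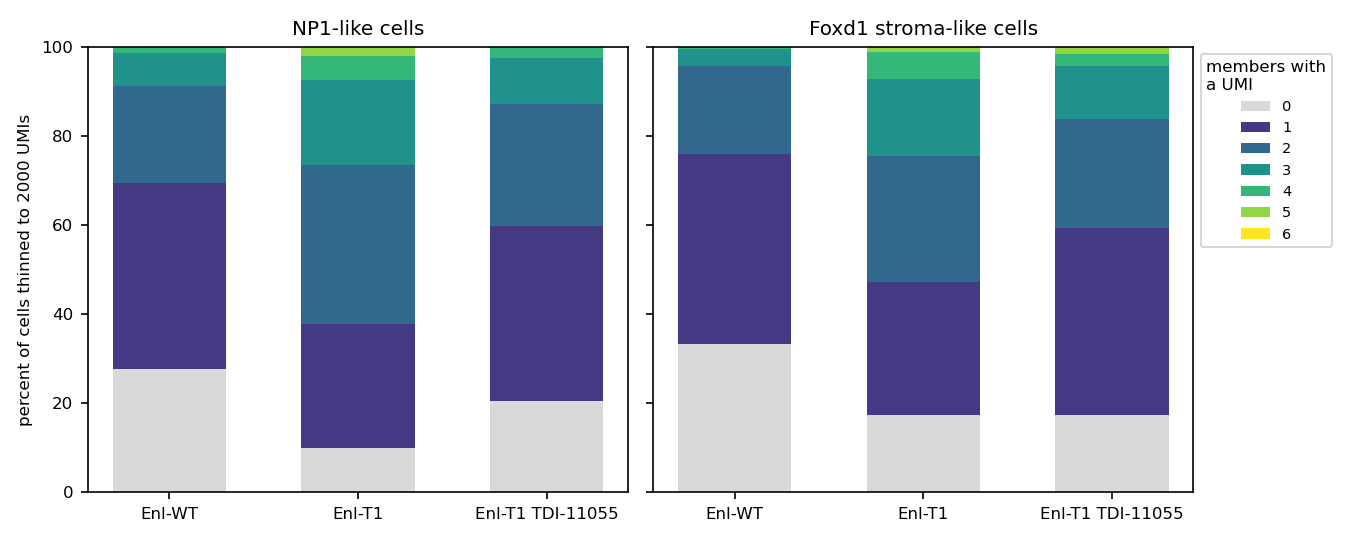
Percent of cells, thinned to 2000 UMIs each (y axis), with a UMI of 0 to 6 of the paralogs (colours) in NP1-like and Foxd1 stroma-like cells of the 3 libraries (x axis). Cells with 0 members are 27.8% of NP1-like cells in *Enl*-WT, 10.0% in *Enl*-T1, with 20.5% in the treated library.

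Levels were also compared over 41 combinations of class and library with at least 20 cells, as a description, since the points share libraries and depth. Adjacent paralogs of clusters A and D had the most similar profiles, with Pearson's r of 0.94 for *Hoxa10* with *Hoxa11* and 0.94 for *Hoxd10* with *Hoxd11*. *Hoxc10* with *Hoxc11* had 0.82, and the other pairs ranged from 0.51 to 0.81. Outside the *Hox*, mitochondrial, ribosomal and haemoglobin genes, the most similar of 11005 genes was *Cpxm1* for *Hoxa10* (r of 0.68), *Cacna2d1* for *Hoxc10* (0.74), *Gm14396* for *Hoxd10* (0.77), *Tmem35a* for *Hoxa11* (0.74), *2310010J17Rik* for *Hoxc11* (0.77) and *Gm14396* for *Hoxd11* (0.74). Each of these was less similar than the adjacent paralog.

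The flanking *Hox* genes split by cluster too. In nephron-like cells *Hoxa9*, next to *Hoxa10*, was at 115, 293 and 277 CPM, *Hoxc9* at 62.2, 201 and 81.2 CPM, and *Hoxd9* at 54.9, 74.2 and 44.8 CPM. The ratio of the treated library to *Enl*-T1 was 0.947 (0.909–0.986) for *Hoxa9*, 0.404 for *Hoxc9* and 0.604 for *Hoxd9*. In stroma-like cells these ratios were 1.75, 0.689 and 0.531, so the A gene was highest in both lineages, while the lowest was the C gene in the nephron and the D gene in the stroma. *Hoxa11os*, transcribed antisense to *Hoxa11*, was at 38.8, 189 and 185 CPM in the nephron and 27.5, 119 and 177 CPM in the stroma.

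Genes on the 5′ side of the members, which are little used in the kidney, were followed as *Hoxd12*, *Hoxa13* and *Hoxc12*, with the non-coding RNA *Hotair*. *Hoxd12*, next to *Hoxd11*, had 70 UMIs in *Enl*-WT nephron-like cells, 1254 in *Enl*-T1, with 489 in the treated library, a ratio of *Enl*-T1 to *Enl*-WT of 17.3 (13.6–22.4) and of the treated library to *Enl*-T1 of 0.294. *Hoxa13* had 0, 74 and 35 UMIs, and *Hotair*, next to *Hoxc11*, 3, 43 and 20. *Hoxc12* had 0, 0 and 2 UMIs. Of these genes *Hoxc12* alone was not counted more often in *Enl*-T1, although its neighbour *Hoxc11* had the highest ratio of the members.

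The partners and targets of HOX11 proteins were lower or level in *Enl*-T1. In NP1-like cells *Six2*, the progenitor factor that the HOX11, EYA1 and PAX2 complex activates, was at 167, 77.7 and 167 CPM, a ratio of *Enl*-T1 to *Enl*-WT of 0.466 (0.421–0.516). *Gdnf*, the ligand that draws in the ureteric bud, was at 58.7, 25 and 55.8 CPM, and the integrin *Itga8* at 90.7, 19.9 and 28.4 CPM. These 3 targets were lowest in *Enl*-T1, where the Hox11 sum was highest (302, 538 and 375 CPM), although *Hoxa11* alone was highest in the treated library. The NP1 marker sum given above, 1499, 625 and 1113 CPM, was lowest in *Enl*-T1 too, and its part in the targets' values was not tested. *Eya1* was at 184, 120 and 148 CPM and *Pax2* at 360, 370 and 230 CPM. Of these 5 genes, 3 were 2-fold lower in *Enl*-T1, where 11.1% of genes were, and 0 were 2-fold higher.

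The HOX cofactors of the MEIS and PBX families likewise showed no common gain. In NP1-like cells *Meis2* was at 791, 729 and 724 CPM, *Meis1* at 115, 85.1 and 51.8 CPM and *Pbx2* at 92.4, 60.6 and 65.4 CPM. All 3 had their highest level in *Enl*-WT. In Foxd1 stroma-like cells *Meis2* was at 888, 1533 and 1034 CPM, and so was highest in *Enl*-T1 there. *Mllt1* itself, whose counts do not separate the wild-type from the T1 allele, was at 27.1, 20.1 and 18.3 CPM in nephron-like cells.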

How the data were processed

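The deposited matrices held raw UMI counts per gene and barcode, made by the authors with Cell Ranger 6.1.2 on mouse build mm10. All 3 libraries were used, 1 per group, and no map from cells to embryos was used. Barcodes with 1000 to 6000 genes and at most 10% mitochondrial UMIs were kept. Cells were log-normalised, integrated with anchors and clustered (Seurat 5.3.0 with SeuratObject 5.2.0, under R 4.3.3) on 2000 variable genes, with 60 genes (all *Hox* genes and the listed genes) left out, on 30 principal components at resolution 0.5, and for nephron and stroma again on 20 at resolution 0.8. Clusters were named from marker genes, with at least 3 detected. The rules that a cluster's markers lie above the rest and belong to its own lineage were set after the clusters were seen, and a difference from the study may come from these rebuilt names. Doublets were left in. Removing the highest Scrublet scores (scanpy 1.11.5, 0.8% per 1000 barcodes) was an alternative, and its levels were added after seeing the data.

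Counts were summed per library and class. Levels are CPM of those sums and ratios are conditional on the summed counts. Over all genes with a mean of at least 5 CPM in a comparison, fold counts and median log2 ratios used CPM with no pseudocount. Profiles across classes were compared as log2(CPM + 10). Co-expression was counted after thinning to 2000 UMIs, and computed joint counts are the product of the separate shares. The code was tested on simulated data. Other scalings, filters, class definitions, thinning depths and cells with *Xist* or Y-linked UMIs were tried as alternatives. Named non-members were the flanking *Hox* genes, HOX11 partners and targets, cofactors, antisense and intervening transcripts of a list, and the most similar gene by Pearson's r among genes of at least 20 CPM somewhere. Some genes of these lists are not reported here. The members and lists were chosen with earlier results of these data known. Total UMIs per library were 37221435, 63336586 and 76619303. Sequences come from RefSeq (GRCm38.p6) and positions from GENCODE M21. *Hoxc10* and *Hoxc11* promoters were not analysed here. Analyses used Python 3.11.15, numpy 2.4.6, scipy 1.17.1 and pandas 2.3.3.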

Additional observations from a re-analysis of the deposited data

Results flagged for a closer look

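*Hoxa10* and *Hoxa11* had ratios of the treated library to *Enl*-T1 on opposite sides of 1 in different lineages, with intervals of counting error that did not reach 1. For *Hoxa10* the ratio was 1.35 (1.27–1.44) in stroma-like cells and 0.679 (0.530–0.869) in ureteric-like cells. For *Hoxa11* it was 1.09 (1.02–1.17) in nephron-like, 1.31 (1.18–1.46) in stroma-like, 0.556 (0.356–0.861) in ureteric-like and 0.130 (0.00307–0.852) in endothelial-like cells. The endothelial value rests on 1 UMI against 14, and the ureteric values on 123 against 147 and on 37 against 54 UMIs. With 1 library per group, the difference between lineages was not tested. With the highest Scrublet scores removed the ureteric ratios were 1.92 and 1.88, so their direction turned.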

How the results depend on the processing

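No paired analysis was possible because each group was 1 library. The summed ratio of *Enl*-T1 to *Enl*-WT was above 2 in nephron-like and stroma-like cells under every alternative run. In the nephron (2.95) it was 3.86 with median-of-ratios scaling, 3.58 without mitochondrial, ribosomal and haemoglobin genes, 3.30 in cells with Y-linked UMIs, 2.83 in cells with *Xist* and also in named clusters alone, and 2.80 at a mitochondrial limit of 5%. In the stroma (2.27) it was 2.77, 2.58 and 2.64 under the first 3 of these, 2.55 in named clusters alone, 2.50 with lineages set by marker score and 2.54 with no upper gene limit. The summed ratio of the treated library to *Enl*-T1 in the nephron (0.622) was 0.595 without those gene classes, 0.651 in named clusters, 0.663 by marker score, 0.664 at the 5% limit and 0.692 with no upper gene limit. In the stroma (0.913) it was 0.803 with Y-linked UMIs, 0.828 by marker score, 0.843 with no upper gene limit, 0.847 with median-of-ratios scaling, 0.872 in named clusters and 0.964 at the 5% limit, and it turned to 1.02 (0.963–1.07) in cells with *Xist*. The difference of 36.2 points in joint Hox10 and Hox11 detection in the nephron was 17.7 thinned to 1000 UMIs, 43.1 to 4000, 50.2 unthinned and 40.2 in cells with Y-linked UMIs, and the 18.5 points in the stroma were 11.6, 26.6 and 36.3, and 23.3 in named clusters. The cause was not tested where no depth was changed. Among members' ratios whose interval left out 1, 7 turned, all in ureteric-like cells, and ratios whose interval held 1 crossed it in other lineages too, such as *Hoxd11* in *Enl*-T1 over *Enl*-WT in endothelial-like cells, from 0.507 to 1.74. *Hoxa10* treated over *Enl*-T1 was 1.14 by marker score, 1.92 without high Scrublet scores and 1.22 in cells with *Xist*, *Hoxa11* was 1.88 without high scores and 1.20 with Y-linked UMIs, and *Hoxa11* in *Enl*-T1 over *Enl*-WT was 0.846 and 0.881 under the same 2 settings. In ureteric-like cells *Hoxc10* and *Hoxc11* in *Enl*-T1 over *Enl*-WT (1.80 and 1.69) were 2.37 and 4.71 without high Scrublet scores and 2.22 and 2.09 with median-of-ratios scaling. They were 3.55 and 4.35 by marker score and 4.67 and 4.37 with no upper gene limit. Shares of all genes past 2-fold were not computed under these settings. The split of A from D genes held in the ranges over alternatives in nephron and stroma. *Hoxa10* treated over *Enl*-T1 was at 0.988 to 1.13 in the nephron and 1.07 to 1.58 in the stroma. *Hoxd11* was at 0.495 to 0.590 and 0.467 to 0.586. *Hoxc10* was at 0.384 to 0.459 in the nephron and 0.634 to 0.786 in the stroma. *Hoxc11* was at 0.889 to 1.10 in the stroma, a range that overlapped that of *Hoxa10* and not that of *Hoxc10*. Median-of-ratios scaling moved log2 ratios of *Enl*-T1 to *Enl*-WT up by 0.39 in the nephron and 0.29 in the stroma. Depth limits *Hoxc11* in *Enl*-WT and every member in endothelial-like cells.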

Other observations

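A cluster of nephron-like cells that no marker list named was led by *Sst*, *Akap12* and *Meg3* and held 42, 195 and 14 cells, 1.90%, 15.0% and 1.04% of nephron-like cells in *Enl*-WT, *Enl*-T1 and the treated library. Its summed level of the 6 genes was 449, 1872 and 1146 CPM. In its *Enl*-T1 cells *Hoxc10* was at 592 (555–630) CPM, *Hoxd11* at 566 (530–603) CPM and *Hoxa10* at 338 (310–367) CPM, and 60.4% of the thinned cells had a UMI of both paralog groups. Leaving out this and the other unnamed nephron cluster gave the named-cluster values above. In the stroma, a cluster led by *Gap43*, *Nrxn3* and *Apcdd1* had a summed level of 749 CPM in *Enl*-WT (54 cells), near that of medullary stroma-like cells.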
